A study of Rattus norvegicus with 14 samples.

Results

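The genes described here are 10 immediate early genes of the rat. They comprise the activator protein 1 (AP-1) subunits Fos, Fosb, Fosl2 and Junb, the zinc finger factors Egr1, Egr2 and Egr3, the orphan nuclear receptor Nr4a1, the basic helix-loop-helix factor Npas4, and Arc, an effector that acts at the synapse. They were chosen by symbol, and all 10 were listed among the 18239 genes of the neuron table and the 31791 genes of the astrocyte table. A mean of at least 10 normalized counts was required for testing, which all 10 passed in neurons, out of 15314 genes tested, and 9 passed in astrocytes, out of 15380. Npas4 was the gene below that level in astrocytes.

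RNA was sequenced from hippocampal neurons and hippocampal astrocytes grown from embryonic day 18 fetuses of Sprague Dawley rats. All cultures were in AM medium, the supplement-reduced condition that serves as an aging model, so that the vehicle controls carried it as well. Neurons on day 10 in culture had 4 h of AM medium and then 16 h of vehicle (AM-Veh, 0.001% ethanol) or 100 nM allopregnanolone (AM-Allo), and each group had 4 libraries, numbered 1-1, 1-2, 2-1 and 2-2. Astrocytes were enriched by shaking off microglia and oligodendrocytes, and were replated. They had 24 h of AM medium and then 24 h of vehicle or 100 nM allopregnanolone, with 3 libraries in each group. Allopregnanolone (Allo) is a neurosteroid, a metabolite of progesterone and a positive modulator of the GABA-A receptor. Embryonic cultures in reduced supplement are a model of an aging medium, not of aged tissue. The neuron libraries whose number begins with 1 are called set 1 below and those whose number begins with 2 set 2. The labels do not say what the first number stands for, nor whether replicates came from separate cultures, so p-values measure the spread between these libraries, which may be technical.

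Immediate early genes are transcribed without new protein synthesis when a cell is stimulated. Calcium entry and kinase cascades reach their promoters through CREB, which binds the cyclic AMP response element (CRE), and through serum response factor with its partners, which bind the CArG box. Fos and Jun proteins pair into AP-1, the Egr factors bind GC-rich sites, Nr4a1 acts without a known required ligand, and Npas4 is induced in neurons chiefly by calcium influx. Arc protein takes part in the endocytosis of AMPA receptors. Their transcripts are short-lived, and peaks after a single stimulus usually pass within hours, so the values below are levels at 16 h or 24 h and not the first response.

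The stretch of 250 bases before the RefSeq start of transcription (assembly GRCr8) was read for 7 of the 10 genes. It is shown for the 4 that held the CRE core TGACG. Junb and Nr4a1 are the genes that separated the neuron sets below. Egr1 and Egr2 are paralogs whose Allo estimates in neurons differed in sign, with an interval for Egr2 that spanned 0. Capitals mark CRE cores on either strand and CArG boxes.
Egr1, chr18:26736828-26737077, plus strand: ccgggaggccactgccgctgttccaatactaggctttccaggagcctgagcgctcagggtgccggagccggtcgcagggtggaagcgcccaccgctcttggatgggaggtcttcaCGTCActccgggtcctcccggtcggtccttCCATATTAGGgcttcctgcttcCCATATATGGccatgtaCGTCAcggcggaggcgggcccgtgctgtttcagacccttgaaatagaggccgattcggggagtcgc
Egr2, chr20:21054442-21054691, minus strand: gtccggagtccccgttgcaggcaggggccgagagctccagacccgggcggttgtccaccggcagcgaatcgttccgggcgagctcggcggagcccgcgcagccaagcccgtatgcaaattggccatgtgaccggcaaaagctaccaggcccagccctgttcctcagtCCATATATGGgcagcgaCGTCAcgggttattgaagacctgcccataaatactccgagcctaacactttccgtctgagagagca
Junb, chr19:40080876-40081125, plus strand: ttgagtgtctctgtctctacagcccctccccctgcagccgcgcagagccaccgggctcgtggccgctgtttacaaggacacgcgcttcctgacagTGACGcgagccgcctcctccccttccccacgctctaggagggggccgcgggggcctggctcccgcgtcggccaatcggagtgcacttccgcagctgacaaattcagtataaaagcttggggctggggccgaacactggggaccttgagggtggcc
Nr4a1, chr7:134259888-134260137, plus strand: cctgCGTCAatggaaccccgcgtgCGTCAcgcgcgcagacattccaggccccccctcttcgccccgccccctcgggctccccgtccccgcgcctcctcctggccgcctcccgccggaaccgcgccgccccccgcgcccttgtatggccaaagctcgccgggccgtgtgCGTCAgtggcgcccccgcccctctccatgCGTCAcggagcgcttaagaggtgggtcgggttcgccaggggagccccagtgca
The windows of Egr2 and Nr4a1, and those of Fosb and Npas4, lie within the annotated span of those genes, so a longer transcript starts farther upstream. Egr1 held CArG boxes that begin 105 and 83 bases before the start and CRE cores at 135 and 66 bases. Egr2 held a CArG box and a CRE core at the same distances as the nearer pair of Egr1, 83 and 66 bases. Junb held 1 CRE core at 155 bases, and Nr4a1 held 4, at 246, 226, 82 and 53 bases. The CRE core was thus present in 4 of the 7 windows, against 19.0% of 27457 rat promoter windows of that length, and the CArG box in 2 of 7, against 1.5%. The whole CRE TGACGTCA, which contains the core on both strands, was in 0 of 7 (1.7% of all windows) and the AP-1 site TGANTCA also in 0 of 7 (6.36%). The Egr site GCGNGGGCG was in the windows of Fosl2 and Nr4a1 (4.53% of all). Fosb and Npas4 held none of the CRE cores, CArG boxes or Egr sites. All motifs were searched on both strands, and a match of letters is a description, not a measured site.

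The neuron libraries held about 19700000 to 24800000 reads on genes and the astrocyte libraries about 22200000 to 28400000, judged from the step between their lowest values, so 1 read was worth 0.845 to 1.14 normalized counts. Counts of Fosb and Npas4 in neurons therefore stand on few reads. In the neuron cultures 10 of 11 neuronal markers were listed, with summed levels of 51830 to 62380 normalized counts against 26460 to 28070 in astrocyte cultures. In astrocyte cultures 5 of these markers reached a mean of 10, so their sum there stands on few genes, Map2 (3268 to 4066) among them. The 9 astrocyte markers summed to 199000 to 259000 in neuron cultures and 239700 to 253800 in astrocyte cultures, so the libraries labelled neuron also carried abundant astrocyte transcripts (Gfap 68164 to 118740, Slc1a3 57387 to 62381 and Aqp4 23235 to 28476 normalized counts). The 8 markers of the oligodendrocyte lineage summed to 38370 to 45310 in neuron cultures, led by Olig1, Olig2 and Pdgfra, and 3917 to 4359 in astrocyte cultures. Mesenchymal and endothelial markers, 8 of 9 listed, summed to 63800 to 76990 in astrocyte cultures, led by Col1a2 (27815 to 32188) and with Cldn5 at 0 in all 6 libraries, and microglia markers, 9 of 9 listed, to 1548 to 1931. In neuron cultures 6 of the 9 microglia markers were listed, led by Cd68, and summed to 92.6 to 165. In such bulk libraries fewer cells of a type and less RNA per cell cannot be told apart.

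In neurons, 8 of the 10 genes had a lower estimate in AM-Allo than in AM-Veh and 2, Fosl2 and Egr2, a higher one. After Benjamini-Hochberg adjustment over all genes (limma), 0 of the 10 passed 0.05, against 4 of 15314 genes (0.0261%). At an unadjusted p under 0.05, 3 of the 10 were lower and 0 higher, Fosb, Egr1 and Egr3, against 5.69% of all genes in either direction. The median log2 difference of the 10 genes was -0.25, beside -0.0015 for all genes tested. In 2 of the 10, Fosb and Egr3, the 4 AM-Allo levels all lay under the 4 AM-Veh levels, a separation seen in 3.95% of all genes in either direction.

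**Figure D1:**
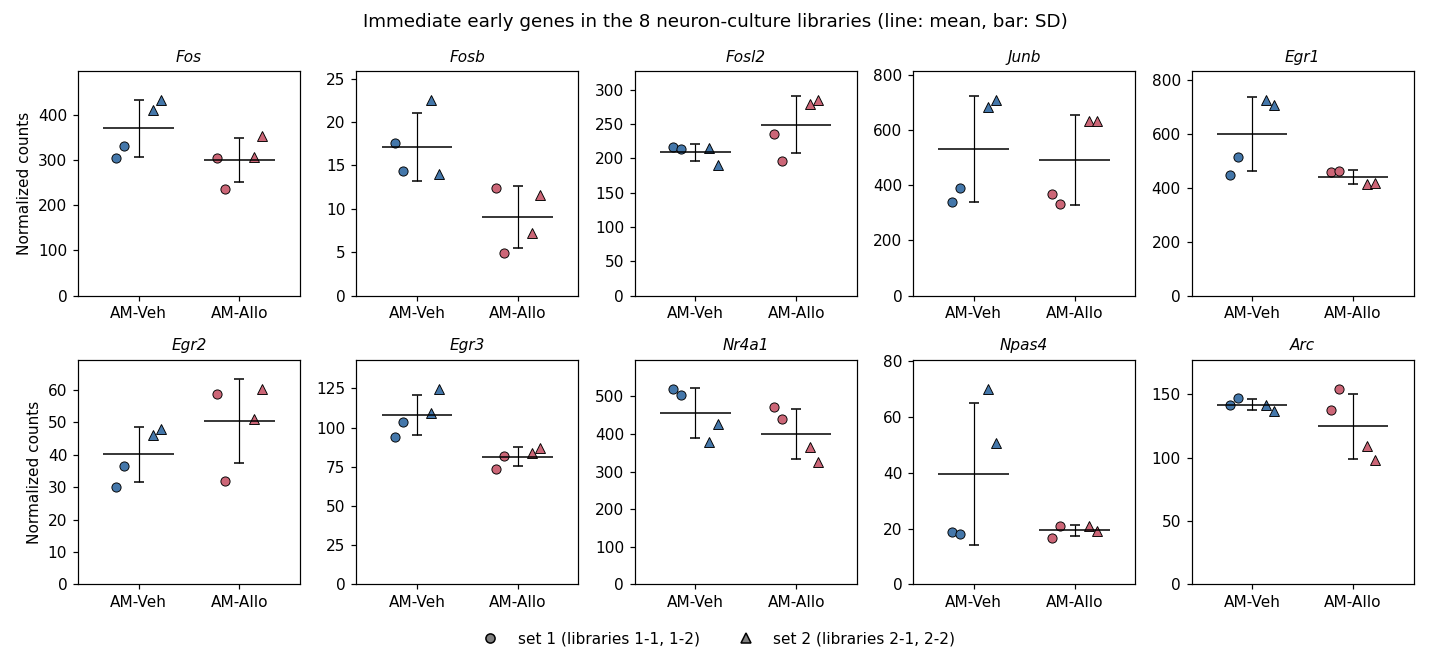
Normalized counts of the 10 immediate early genes (vertical axes, each from 0) in the 4 AM-Veh (blue) and 4 AM-Allo (red) neuron libraries, with circles for set 1 and triangles for set 2, a line at the group mean and a bar of 1 SD either way. Junb splits by set (331 to 391 against 632 to 708), while Egr1 and Npas4 stand high in the AM-Veh libraries of set 2 alone.

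Among the AP-1 subunits, Fos is the founding member and the usual marker of recent stimulation. Its AM-Veh levels were 304 and 330 normalized counts in set 1 and 411 and 432 in set 2, and its AM-Allo levels 303, 236, 306 and 353 in the same order. The AM-Allo mean was 0.81 times that of AM-Veh, with a log2 difference of -0.30 (95% interval -0.61 to 0.011, adjusted p = 0.88, limma), and the groups overlapped. Fosb, which also gives rise to the long-lived deltaFosB by splicing, had 17.6, 14.4, 22.5 and 14.01 normalized counts under vehicle and 12.4, 4.88, 7.21 and 11.6 in AM-Allo. The groups did not overlap, and the log2 difference was -0.91 (95% interval -1.62 to -0.20, unadjusted p = 0.0171, adjusted p = 0.737, limma; exact permutation p = 0.0286, the smallest that 4 against 4 libraries allow). Without AM-Veh library 2-1 the unadjusted p of Fosb was 0.053 and the log2 difference -0.78.

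Fosl2, a Fos-related subunit known for slower and more sustained expression than Fos, ran the other way. It had 217, 213, 215 and 189 normalized counts under vehicle and 236, 196, 280 and 285 under Allo, so that 3 of the 4 AM-Allo libraries exceeded every AM-Veh library and AM-Allo 1-2 did not. Its log2 difference was 0.24 (95% interval -0.023 to 0.50, adjusted p = 0.88). Junb, a Jun-family partner of the Fos proteins, had 339, 391, 683 and 708 normalized counts under vehicle and 368, 331, 634 and 632 under Allo. The treatments overlapped in set 1, both AM-Allo libraries were below both AM-Veh libraries in set 2, and the log2 difference over all libraries was -0.097 (95% interval -0.73 to 0.53).

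Egr1, the most studied Egr factor in synaptic plasticity, had 447 and 516 normalized counts in the AM-Veh libraries of set 1 and 725 and 708 in those of set 2. In AM-Allo it had 458 and 463 in set 1 and 415 and 419 in set 2. Its log2 difference over all libraries was -0.42 (95% interval -0.73 to -0.11, unadjusted p = 0.0133, adjusted p = 0.712), with overlap between the groups in set 1. Egr3, a relative of Egr1 that muscle spindles need to develop, had 94.3, 104, 109 and 125 normalized counts under vehicle and 73.5, 81.7, 83.7 and 87.2 in AM-Allo. All 4 AM-Allo libraries were below all 4 AM-Veh libraries, by 0.40 on the log2 scale in the mean (95% interval -0.66 to -0.13, unadjusted p = 0.00691, adjusted p = 0.65; exact permutation p = 0.0286). Egr2, a factor better known from myelinating Schwann cells, had 29.99, 36.3, 46.0 and 48.0 normalized counts under vehicle and 58.7, 32.0, 50.8 and 60.3 in AM-Allo. The Egr2 groups overlapped through AM-Allo library 1-2, and the log2 difference was 0.31 (95% interval -0.21 to 0.82, adjusted p = 0.974).

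Nr4a1, which encodes the receptor also called Nur77, had 520, 503, 379 and 426 normalized counts under vehicle and 472, 439, 364 and 327 under Allo. Within each set both AM-Allo libraries were below both AM-Veh libraries, and the log2 difference over all libraries was -0.19 (95% interval -0.48 to 0.098, adjusted p = 0.954). Npas4, which controls inhibitory synapse number on excitatory neurons, had 18.9 and 18.2 normalized counts in AM-Veh of set 1 and 70.1 and 50.7 in AM-Veh of set 2. In AM-Allo it had 16.8, 21.0, 20.9 and 19.3, which is the level of the set 1 vehicle libraries, and the log2 difference was -0.76 (95% interval -1.64 to 0.13, adjusted p = 0.892). That of Npas4 was -0.41 without AM-Veh 2-1 and -1.04 without AM-Veh 1-2. Arc had 141, 147, 141 and 136 normalized counts under vehicle and 137, 154, 109 and 98.4 in AM-Allo, so both AM-Allo libraries of set 2 were below all others. Its log2 difference was -0.20 (95% interval -0.51 to 0.10, adjusted p = 0.954).

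**Figure D2:**
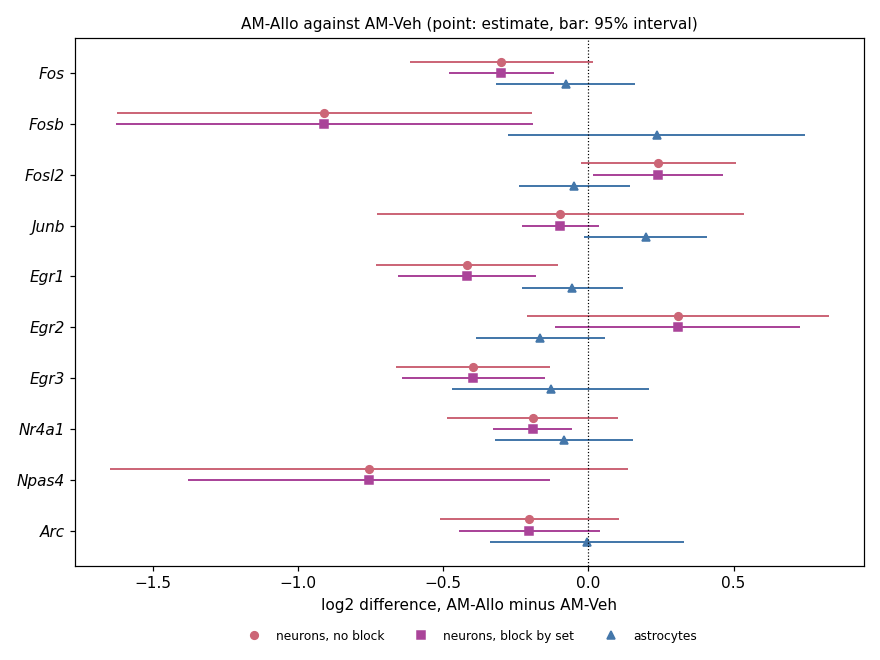
Log2 difference, AM-Allo minus AM-Veh (horizontal axis), with 95% intervals for each gene in neurons without a block (circles), in neurons with a block by set (squares) and in astrocytes (triangles). In neurons the intervals of 3 genes without the block and of 7 genes with it leave out 0, and in astrocytes the intervals of all 9 genes tested span 0.

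The neuron libraries differed by set, as described with the processing, so fits with a block were also made. With a block by set, 7 of the 10 genes had an unadjusted p under 0.05, 6 of them lower in AM-Allo (Fos, Fosb, Egr1, Egr3, Nr4a1 and Npas4) and Fosl2 higher, against 11.0% of all genes. With a block by the whole number the count was again 7 of 10, against 10.7%. After adjustment, 0 of the 10 passed with the block by set, against 0.679% of all genes, and the lowest adjusted p was 0.117, for Egr1. The blocked 95% interval of Fos ran from -0.48 to -0.12 and that of Nr4a1 from -0.33 to -0.060. Without 1 library at a time and without a block, 2 to 6 of the 10 genes had an unadjusted p under 0.05, against 680 to 968 of all genes in the same fits. The count was 5 when either AM-Veh library of set 1 was left out and 6 when AM-Allo 1-2 was. Egr1 and Egr3 were among them each time. Over these fits the log2 difference of Fos ran from -0.39 to -0.19, that of Nr4a1 from -0.28 to -0.10, that of Arc from -0.31 to -0.098 and that of Egr2 from 0.18 to 0.51.

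Several of these genes differed between the sets. With treatment in the model, 3 of the 10 passed an adjusted p of 0.05 between set 2 and set 1, against 17.2% of all genes, and 6 passed an unadjusted 0.05, against 29.3%. Junb was higher in set 2 by 0.89 on the log2 scale (SE 0.060, adjusted p = 7.67e-08), with a mean of 664 normalized counts against 357 and no overlap. Nr4a1 was lower in set 2 by a log2 difference of -0.37 (SE 0.062, adjusted p = 0.000593), with a mean of 374 against 484 and no overlap. Fos was higher in set 2 by 0.35 (SE 0.083, adjusted p = 0.008), with means of 376 and 293 and some overlap, and its adjusted p was 0.059 without the trend in the variance. The other 3 with an unadjusted p under 0.05 were Egr2 (log2 difference 0.42), Npas4 (0.86, adjusted p = 0.0546) and Arc (-0.27). Npas4 passed adjustment without AM-Allo 1-2 (adjusted p = 0.0244) or AM-Allo 2-2 (0.0407), and without AM-Veh 2-1 its difference was 0.62 (unadjusted p = 0.0574, adjusted p = 0.201). Egr2 had an unadjusted p of 0.0566 to 0.196 when any 1 of the AM-Veh libraries, AM-Allo 1-2 or AM-Allo 2-2 was left out, and Arc one of 0.0618 to 0.124 when any 1 of the AM-Allo libraries was. The separation without overlap shown by 2 of the 10, Junb upward and Nr4a1 downward, was shown by 19.6% of all genes.

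Marker levels moved with the set as well, to be read beside the 17.2% of all genes that passed an adjusted p of 0.05. The astrocyte markers, of which 4 of 9 were higher and 2 lower in set 2 at an adjusted p under 0.05, summed to 199000 to 210900 normalized counts in set 1 and 236100 to 259000 in set 2. A list of heat shock and other stress genes, 5 of 7 higher, summed to 29920 to 32210 in set 1 and 50780 to 56730 in set 2. Most of that sum was Hmox1 (means of 7368 in set 1 and 17430 in set 2) and Sqstm1 (17360 and 29090). Of the heat shock genes proper, Hsph1 (3741 and 3608) and Dnajb1 (1122 and 1095) had lower means in set 2, and Hspa1a (203 and 261) and Hspb1 (588 and 1184) higher ones. Mesenchymal and endothelial markers, 4 of 7 lower, summed to 673 to 2348 in set 1 and 272 to 377 in set 2, and 5 of 8 markers of the oligodendrocyte lineage were lower and 1, Sox10 (log2 difference 0.53), higher. Of the neuronal markers 3 of 10, Gad1 (0.52), Gad2 (0.51) and Syt1 (0.22), were higher in set 2 and 0 lower, and of the 2 microglia markers tested Cd68 (0.86) was higher. Their part in the set difference of Junb, Nr4a1 and Fos was not tested.

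The Allo difference itself was then compared between the sets, 2 libraries for each set and treatment, as the difference in set 2 minus that in set 1. For Egr1 this was -0.72 on the log2 scale (SE 0.11, 95% interval -0.95 to -0.48, adjusted p = 0.0388, limma), and Egr1 was the only 1 of the 10 to pass the adjusted threshold, against 0.0784% of all genes. In set 1 the Allo difference of Egr1 was -0.060 and in set 2 it was -0.78, a ratio of means of 0.58. At an unadjusted p under 0.05 were 4 of the 10, against 9.53% of all genes. Beside Egr1 these were Npas4 at -1.54 (SE 0.43, adjusted p = 0.244), Arc at -0.43 (SE 0.20, adjusted p = 0.515) and Fosl2 at 0.48 (SE 0.17, adjusted p = 0.364). For Junb, Fos, Nr4a1, Egr3, Egr2 and Fosb the estimates ran from -0.15 to 0.046.

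The call for Egr1 rested on few libraries. It was lost without AM-Veh 1-1 (adjusted p = 0.116), AM-Veh 2-2 (0.0654), AM-Allo 1-1 (0.109), AM-Allo 1-2 (0.117), AM-Allo 2-1 (0.184) or AM-Allo 2-2 (0.129), while the estimate stayed between -0.82 and -0.62 whichever library was left out. It was also lost without the trend in the variance (adjusted p = 0.524) and with quantile normalization (0.0505). With a block by the whole number it stood at an adjusted p of 0.0077.

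Taken set by set, with the spread of all 8 libraries, 0 of the 10 genes had an unadjusted p under 0.05 in set 1 (7.25% of all genes) and 0 an adjusted one (0.170%). In set 2, 7 of the 10 had an unadjusted p under 0.05 (13.6% of all genes) and 2 an adjusted one (1.97%). Those 2 were Egr1, lower in AM-Allo with an adjusted p of 0.000361, and Npas4, lower by a log2 difference of -1.53 (95% interval -2.18 to -0.87, adjusted p = 0.0181). The set 2 means of Npas4 were 20.1 normalized counts in AM-Allo and 60.4 in AM-Veh. The other 5 were Fos (-0.36), Egr3 (-0.45), Nr4a1 (-0.22) and Arc (-0.42), lower, and Fosl2 (0.48), higher. Fosb had nearly the same estimate in both sets, -0.93 and -0.89, but intervals that spanned 0 in each. Egr3 had -0.35 in set 1 (95% interval -0.70 to 0.0073) and -0.45 in set 2 (-0.80 to -0.091). In set 1 Fos had -0.24 and Nr4a1 -0.17, with an unadjusted p of 0.0565 and 0.0782 (limma). For Fos, Fosb, Egr3 and Nr4a1 the Allo difference was not told apart between the sets (unadjusted p of 0.5 to 0.948, product term). The count of 0 in set 1 is therefore a count at a threshold, not a lack of difference. This split by set was added after the values had been seen.

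**Figure D3:**
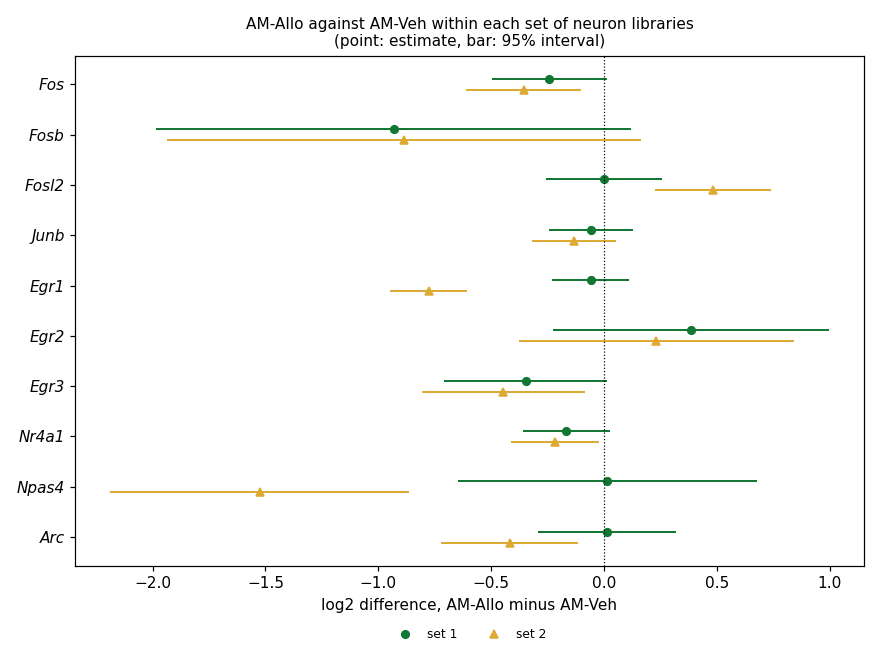
Log2 difference, AM-Allo minus AM-Veh (horizontal axis), with 95% intervals for each gene within set 1 (circles) and within set 2 (triangles) of the neuron libraries, 2 against 2 in each. Egr1 stands at -0.060 in set 1 and -0.78 in set 2, Npas4 at 0.015 and -1.53, and Fosb and Egr3 at similar values in both.

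Over both sets, 3 of the 10 neuronal markers tested, Slc17a7, Tubb3 and Map2, were higher in AM-Allo at an unadjusted p under 0.05 (log2 differences 0.29, 0.21 and 0.10). At that threshold 1, Gad2, was lower (-0.45), against 5.69% of all genes in either direction, and 0 of the 10 passed adjustment. Of the 9 astrocyte, 8 oligodendrocyte lineage, 7 mesenchymal and endothelial and 2 microglia markers tested, 0 had an unadjusted p under 0.05 for Allo without a block. With the block by set, Tubb3 rose and Gad1 (-0.41) and Gad2 fell at an adjusted p under 0.05, against 0.679% of all genes. At an unadjusted p under 0.05 in that fit, 4 neuronal markers were higher and 2 lower, and 5 of the 8 oligodendrocyte lineage markers higher and 0 lower. So were 1 astrocyte marker higher and 1 lower, and 1 mesenchymal or endothelial marker higher. The share over all genes was 11.0%. Neuronal markers also moved with the difference between the sets. In set 1 their sum was 53150 to 56960 normalized counts for the vehicle libraries and 53970 to 56250 for the Allo libraries. In set 2 it was 51830 to 56240 and 60480 to 62380. All 10 tested had a more positive Allo difference in set 2 than in set 1, 8 of them at an unadjusted p under 0.05 and 0 at an adjusted one. The summed astrocyte markers of set 2 were 247100 to 259000 in AM-Veh and 236100 to 251400 in AM-Allo. Their part in the values of Egr1, Npas4, Arc and Fosl2 was not tested. Within set 2, the libraries with the larger neuronal sum were the AM-Allo libraries, so the sum and the treatment cannot be told apart there.

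Other inducible transcription factors were covered by a list of 22 genes, 21 of them tested in neurons. Without a block, 1 of the 21, Egr4, was lower in AM-Allo at an unadjusted p under 0.05 and 0 were higher, against 5.69% of all genes. After adjustment 0 passed (median log2 difference -0.073). With the block by set, 3 of the 21 were lower at an unadjusted p under 0.05, Egr4, Nr4a3 (-0.22) and Btg2 (-0.15). In that fit 0 were higher and 0 passed adjustment, and the unadjusted share over all genes was 11.0%. Egr4, the remaining Egr family member, had 29.9, 26.6, 31.0 and 29.2 normalized counts under vehicle and 26.4, 9.99, 10.1 and 10.5 in AM-Allo. The groups did not overlap, as in 3.95% of all genes. AM-Allo 1-1 lay near the vehicle libraries, and the log2 difference was -1.11 (95% interval -1.78 to -0.43, adjusted p = 0.589). Jun itself, with a mean of 2368 normalized counts under vehicle and 2454 under Allo, had a log2 difference of 0.049 (95% interval -0.079 to 0.18).

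Among 25 inducible effector genes, 23 of them tested, 5 were lower and 1 higher at an unadjusted p under 0.05 without a block. The share over all genes was 5.69%, and 0 of the 23 passed adjustment (median log2 difference -0.085). With the block by set, 4 fell and 1 rose at an adjusted p under 0.05, against 0.679% of all genes. The 4 that fell were Vgf, Rgs2, Scg2 and Dusp5, and the 1 that rose was Syt4. Vgf, a secreted neuropeptide precursor, had 1975, 1921, 2508 and 2457 normalized counts under vehicle and 1010, 824, 1729 and 1369 under Allo. The highest AM-Allo level of Vgf was under its lowest AM-Veh level, with a log2 difference of -0.89 (adjusted p = 0.353 without a block and 0.000133 with it). Rgs2, an inhibitor of G protein signalling, had 514, 467, 523 and 503 in AM-Veh and 429, 376, 408 and 389 in AM-Allo (log2 difference -0.32, adjusted p = 0.0233 with the block). Dusp5, a nuclear dual-specificity phosphatase, had 157, 142, 156 and 113 in AM-Veh and 108, 91.0, 96.3 and 75.5 in AM-Allo (log2 difference -0.61, adjusted p = 0.0464 with the block). Scg2, a granin of secretory granules, had a log2 difference of -0.19 (unadjusted p = 0.633 without the block and adjusted p = 0.0228 with it), and Syt4, a synaptotagmin, of 0.25 (adjusted p = 0.0464 with the block). Bdnf, the neurotrophin that Npas4 and CREB are known to drive, had 325, 316, 385 and 300 in AM-Veh and 272, 241, 280 and 293 in AM-Allo, with a log2 difference of -0.28 (unadjusted p = 0.011, adjusted p = 0.671 without a block). Rheb, a GTPase that activates mTORC1, was 3006, 3040, 3067 and 3005 in AM-Veh and 2815, 2839, 2869 and 2905 in AM-Allo, a small difference of -0.085 with no overlap (unadjusted p = 0.011, adjusted p = 0.671).

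Upstream regulators of the response, kinases, CREB and serum response factor among them, numbered 21, with 18 tested. Here 5 were higher in AM-Allo at an unadjusted p under 0.05 without a block and 0 lower, against 5.69% of all genes. After adjustment 0 passed (median log2 difference 0.039). Among the 5 were Elk1 (log2 difference 0.24), Mapk3 (0.14), Camk2a (0.33) and Mef2c (0.25). Mef2c, a calcium-regulated factor of excitatory neurons, rose with the block by set at an adjusted p of 0.00729. It was the only 1 of the 18 to pass, against 0.679% of all genes. At an unadjusted p under 0.05 in that fit, 5 of the 18 were higher and 2 lower, against 11.0%. The levels of Mef2c were 3617, 3606, 4285 and 3831 normalized counts under vehicle and 4109, 4028, 5077 and 5048 under Allo. A list of partners and relatives of Npas4 had 5 genes tested, Arnt, Arnt2, Arntl, Npas1 and Npas2. Of these, 0 had an unadjusted p under 0.05. The most abundant, Arnt2, had 6359 to 6613 normalized counts under vehicle and 6424 to 6848 under Allo. All 7 heat shock and other stress genes tested had a lower estimate in AM-Allo (median log2 difference -0.077). Without a block 1, Dnajb1, had an unadjusted p under 0.05 (log2 difference -0.14), against 5.69% of all genes. With the block by set 3 did, Dnajb1, Hspb1 (-0.19) and Hspa1a (-0.20), against 11.0%. None of the 7 passed adjustment in either fit (lowest adjusted p with the block 0.189). Their part in the lower values of the immediate early genes was not tested.

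In astrocytes after 24 h, 0 of the 9 immediate early genes tested differed between AM-Allo and AM-Veh at an unadjusted p under 0.05, against 7.01% of all genes, and 0 after adjustment, against 0.00650%. The groups overlapped in all 9, while 12.5% of all genes showed no overlap. The median log2 difference of the 9 was -0.056, beside 0.0014 for all genes.

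**Figure D4:**
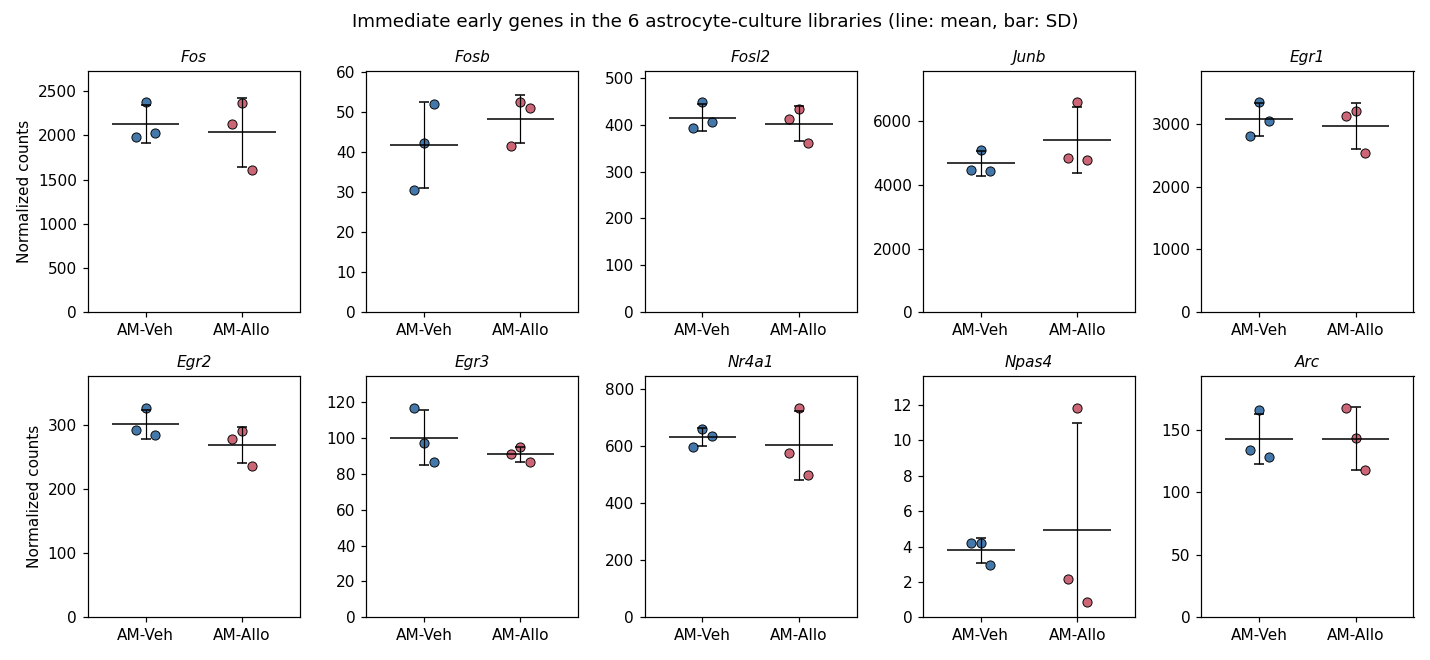
Normalized counts of the 10 genes (vertical axes, each from 0) in the 3 AM-Veh (blue) and 3 AM-Allo (red) astrocyte libraries, with a line at the group mean and a bar of 1 SD either way. The groups overlap in every panel, and Npas4 lies between 0.870 and 11.8.

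Over all 6 libraries the largest estimates in either direction were those of Fosb and Egr2. Fosb had 30.6, 42.4 and 52.0 normalized counts under vehicle and 41.5, 52.5 and 51.1 in AM-Allo, a log2 difference of 0.23 (95% interval -0.27 to 0.74) that ran from 0.033 to 0.41 as each library was left out. Egr2 had 291, 327 and 284 in AM-Veh and 278, 291 and 236 in AM-Allo, a log2 difference of -0.17 (95% interval -0.39 to 0.054; -0.23 to -0.076 without 1 library). The smallest p was that of Junb, with 4470, 5117 and 4445 normalized counts under vehicle and 4840, 6604 and 4792 under Allo. AM-Allo 2 exceeded all others and the remaining libraries overlapped, with a log2 difference of 0.20 (95% interval -0.012 to 0.41, adjusted p = 0.731). When AM-Veh 2, AM-Allo 1 or AM-Allo 3 was left out, the unadjusted p of Junb was 0.0264, 0.0186 and 0.0148. Without AM-Allo 2 its log2 difference was 0.045, and Nr4a1 was then the 1 gene with an unadjusted p under 0.05 (log2 difference -0.24, adjusted p = 0.556, limma).

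Fos had 1980, 2375 and 2024 normalized counts in AM-Veh astrocytes and 2124, 2369 and 1608 in AM-Allo, a log2 difference of -0.078 (95% interval -0.31 to 0.16). Egr1 had 2812, 3343 and 3051 in AM-Veh and 3130, 3211 and 2541 in AM-Allo, a log2 difference of -0.056 (95% interval -0.23 to 0.12). AM-Allo 3 was the lowest of the 6 libraries for both, and the estimates of Fos, Egr1, Fosl2, Nr4a1 and Arc changed sign without it. Without AM-Veh 2, so did those of Fos, Egr1, Fosl2 and Arc. For Fosl2, Egr3, Nr4a1 and Arc the log2 differences lay between -0.13 and -0.0046, with intervals that reached -0.47 and 0.33 at their outermost. Npas4 had 4.22, 4.18 and 2.95 normalized counts under vehicle and 2.15, 11.8 and 0.870 in AM-Allo, with AM-Allo 2 above and the other 2 AM-Allo libraries below every AM-Veh library, and was not tested.

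Among the other inducible factors in astrocytes, 2 of 20 tested were higher in AM-Allo at an unadjusted p under 0.05 and 0 lower, against 7.01% of all genes (median log2 difference 0.052). These were Jund, with 2651, 2669 and 2720 normalized counts under vehicle and 2743, 3058 and 2819 under Allo, and Myc, with 375, 405 and 396 against 452, 538 and 415. Neither overlapped between the groups, as in 12.5% of all genes, and neither passed adjustment (adjusted p = 0.706 and 0.625). Of 22 effectors, Gadd45b (log2 difference 0.26) and Crem (0.27) were higher and Scg2 (-0.14) lower at an unadjusted p under 0.05. Of 17 upstream regulators, Nab2, a corepressor of the Egr factors, was higher (0.15), and 0 genes of these lists passed adjustment. No gene of the list of Npas4 partners and relatives (4 tested, led by Arnt2 at 1435 to 1645 normalized counts) had an unadjusted p under 0.05. The same held for the heat shock and other stress genes (7 tested, led by Sqstm1 at 13099 to 13608). At an unadjusted p under 0.05, 1 of the 5 neuronal markers tested was lower, Map2 (-0.13). So were 2 of 9 astrocyte markers, Slc1a2 (-0.36) and S100b (-0.088), and 1 of 9 microglia markers, Cx3cr1 (-0.58). Of the 6 oligodendrocyte lineage and 4 mesenchymal and endothelial markers tested, 0 reached that threshold. The share over all genes was 7.01%. No marker was higher at that threshold, and 0 passed adjustment.

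Levels of a gene were set side by side between the cultures as normalized counts per 1000000 of each library's total (CPM), without a test, because the 2 tables were normalized separately and the cultures differed in medium, time and cell composition. Levels were not compared between genes, since transcript lengths were not used here. For Junb the median was 201 CPM in astrocyte cultures (186 to 277) and 23.0 in neuron cultures (15.0 to 31.7), a ratio of 8.74. Egr1 had 130 (106 to 139) against 20.9 (18.7 to 32.5), Fos 87.0 (67.0 to 99.3) against 14.4 (10.7 to 19.4), and Egr2 12 (9.84 to 13.6) against 2.11 (1.36 to 2.70). Fosb, at 1.95 against 0.594, and Fosl2, at 17.1 against 9.78, were also higher in every astrocyte library than in any neuron library.

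**Figure D5:**
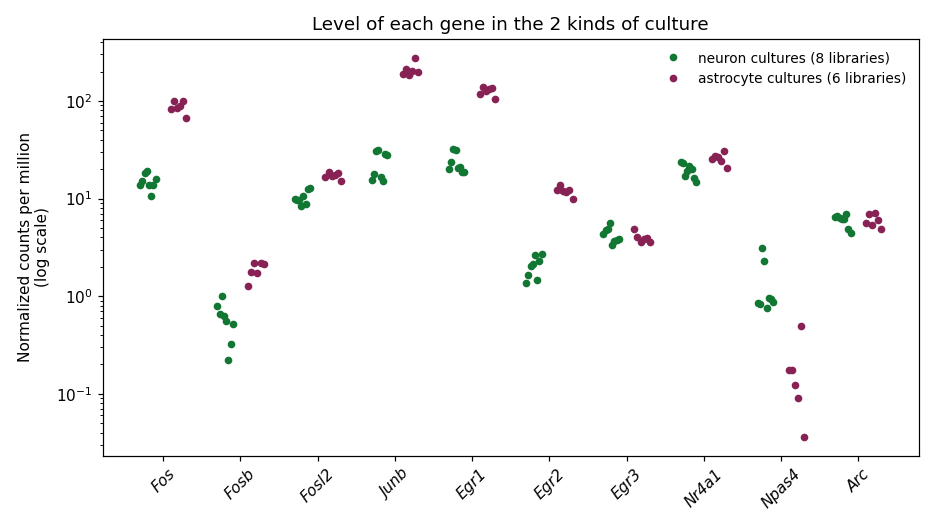
CPM, the normalized counts per 1000000 of the library total (vertical axis, log scale) for each gene in the 8 neuron-culture libraries (green) and the 6 astrocyte-culture libraries (purple), each point a library. 6 of the genes stand higher in every astrocyte library, Npas4 stands higher in every neuron library, and Egr3, Nr4a1 and Arc overlap.

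Npas4 was the reverse, with a median of 0.901 CPM in neuron cultures (0.760 to 3.14) and 0.149 in astrocyte cultures (0.0362 to 0.496). Egr3, Nr4a1 and Arc overlapped between the cultures, with medians of 4.09 and 3.89, 19.5 and 25.9, and 6.27 and 5.81 CPM in neuron and astrocyte cultures. Arc, best known as a neuronal gene, thus had 4.90 to 7.04 CPM in astrocyte cultures and 4.40 to 7.0 in neuron cultures, although the neuronal markers summed to less in the former. The summed astrocyte markers were not converted to CPM. In normalized counts they were 199000 to 210900 in set 1, 236100 to 259000 in set 2 and 239700 to 253800 in astrocyte cultures. Library totals were lower in neuron cultures (21984994 to 22357547) than in astrocyte cultures (23783755 to 24006620). Relative to these totals, the neuron sums thus stand higher beside the astrocyte sums than the counts show. Which cells of the neuron cultures held the AP-1 and Egr transcripts was not tested.

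The joint course of the 10 genes in neurons was summarised as the mean of their centred log2 levels. Each gene counted equally, also Npas4 and Fosb, which stand on few reads. Npas4 had 70.1 and 50.7 normalized counts in AM-Veh of set 2, and Fosb 4.88 in AM-Allo 1-2. The mean was highest in the AM-Veh libraries of set 2, at 0.38 and 0.29, lowest in AM-Allo 1-2, at -0.32, and between -0.11 and -0.031 in the other 5. The genes most like this mean, among 12895 with at least 50 normalized counts, were Erbb2 (Pearson's r = 0.992), Pls3 (0.964), Sparc (0.958), Abcb1b (0.958) and Slc4a2 (0.956). In astrocytes the mean of 9 genes ran from -0.18 in AM-Allo 3 to 0.15 in AM-Allo 2, and the most similar of 12909 genes were Recql5 (r = 0.995), Plekhb2 (0.991), Rpl31 (0.99), Use1 (0.982) and Anp32b (0.98). These correlations rest on 8 and 6 libraries that share treatment, set and composition, and were selected as the highest of many.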

How the data were processed

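Poly(A)-selected stranded libraries were sequenced as paired ends and quantified by the authors with Salmon 0.14 against rat transcripts of Ensembl release 95. The authors summed transcripts to genes with tximport and normalized with DESeq2 1.18.1. The deposited normalized counts are a signal per gene, 1 table per cell type. The authors also deposited variance-stabilized values, which are on a log2-like scale. Whole reads could not be recovered for all genes (66.5% to 93.1% of low values per library were whole within 0.15 reads), so count models were not used.

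A count of 1 was added before taking log2, and genes with a mean of at least 10 were tested with limma 3.58.1 (R 4.3.3, eBayes with a trend), with Benjamini-Hochberg adjustment over all genes of a cell type. Fold changes are on this scale, which understates changes of low genes. The exact permutation test of a single gene was two-sided (SciPy 1.17.1), whose smallest p is 0.0286 for 4 against 4 libraries and 0.1 for 3 against 3. The scripts were tested on simulated data.

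After removal of group means, AM-Veh and AM-Allo neuron libraries of the same number correlated at 0.229 to 0.296 over genes, those that shared only the first number at 0.185 to 0.236, and those that differed in it at -0.15 to -0.32. Each group was centred over both sets, so a difference between the sets alone gives values of these signs. The same-number range overlapped that of libraries sharing only the first number, so pairing by the whole number was not established. Blocks by set and by whole number were both fitted as alternatives. In astrocytes the same-number values were -0.00698 to 0.0241, and the numbers do not pair. The deposited variance-stabilized neuron values have equal means in both sets for all 18239 genes, within 1e-06, so a set effect had been removed from them.

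All 10 genes are described in both cell types. From 10 other lists, genes with an unadjusted p under 0.05 were named, at most 5 per list and cell type, and otherwise the most abundant. The values of 1 gene of these lists are not reported here. Syt4, Scg2, Gad1, Jun, Nr4a3 and Btg2 in neurons were named after their values were seen. The genes and lists were chosen with earlier results of these data known. Promoter windows and positions are from RefSeq on GRCr8, another assembly than that of the quantification. Of the sample columns, 0 were left unused.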

Additional observations from a re-analysis of the deposited data

Results flagged for a closer look

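Fosl2 in neurons had 1 vehicle library apart from the other 3. AM-Veh 2-2 had 189.5 normalized counts, and its gap to the nearest of the others was 0.846 of the group's range. Of 20 groups of 4 libraries looked at in this way, 1 stood out, and chance alone picks about 1 in 20. Without AM-Veh 2-2 the Allo difference of Fosl2 was 0.19 on the log2 scale.

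The Allo difference of Egr1 in neurons differed between the sets, by -0.7181 on the log2 scale with set 2 minus set 1 (limma's product term, adjusted p = 0.0388). The AM-Veh libraries of set 2 held 725 and 708 normalized counts, and the other 6 libraries 415 to 516. The call rests on 2 libraries for each set and treatment, and the labels do not say how the sets differ.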

How the results depend on the processing

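Pseudocounts of 0.5 and 5, filters, rescaling, the deposited variance-stabilized values, the variance model, replicate blocks and leaving out each library were tried. The adjusted count of the 10 genes stayed at 0 for AM-Allo against AM-Veh in either cell type in every fit over all libraries and in every fit without 1 library. The blocks are described with the results. With the block by set 104 neuron genes passed adjustment and 1684 an unadjusted p under 0.05, with 7 of the immediate early genes at the latter, and by the whole number 93, 1634 and 7. With the variance-stabilized values these were 158, 2204 and 7, with a median of -0.099 over the immediate early genes. Those values have the set effect removed without its degree of freedom, and they could not be used to compare the sets. Without a variance trend 0 neuron genes passed adjustment for Allo.

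Within set 1, 26 genes passed adjustment, 0 of the 10 had an unadjusted p under 0.05, the median was -0.060, and Fosl2 (-0.00097), Npas4 (0.015) and Arc (0.012) changed direction. Within set 2, 301 genes and 2 of the 10 passed adjustment, and 2079 and 7 an unadjusted p under 0.05, with Egr1 at -0.78 and Npas4 at -1.53.

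Between the sets, 1722 genes passed adjustment without the trend. The alternatives for the difference in Allo effect between sets were chosen after the values had been seen. There, quantile normalization and a fit without the trend each left 0 genes and 0 of the 10, the block by the whole number gave 108 genes, and Fosb changed direction with a pseudocount of 5 (-0.0085) and with variance-stabilized values (-0.0057).

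In astrocytes, 0 genes passed adjustment with a minimum mean of 50 or without the trend, 4 in a robust fit and 17 with a block by number, where 1 of the 9, Junb, had an unadjusted p under 0.05 (0.00176). These numbers do not pair the libraries. Arc changed direction under quantile normalization (0.0024).

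Leaving out 1 library at a time, Allo in neurons gave 0 to 4 genes past adjustment and 2 to 6 of the 10 at an unadjusted p under 0.05, and Junb ran from -0.29 to 0.071. For the sets, Fosb ran from -0.068 to 0.41. For the difference in Allo effect, 1 to 97 genes and 0 to 1 of the 10 passed adjustment, 2 to 4 of the 10 had an unadjusted p under 0.05, the median ran from -0.32 to 0.0015, Egr1 from -0.82 to -0.62, Fos from -0.29 to 0.066, Fosb from -0.55 to 0.64, Junb from -0.18 to 0.029, Egr2 from -0.58 to 0.28 and Nr4a1 from -0.14 to 0.034. In astrocytes 1 to 72 genes passed adjustment and 0 to 1 of the 9 had an unadjusted p under 0.05, the median ran from -0.12 to 0.051, and Fos ran from -0.20 to 0.082, Fosl2 from -0.11 to 0.028, Egr1 from -0.12 to 0.051, Nr4a1 from -0.24 to 0.043 and Arc from -0.13 to 0.13. The cause of these changes was not tested. Where 1 library was left in a set and treatment, it was assumed to vary like the others. Depth limits Fosb in neurons and Npas4 in both cell types most.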
